A study of Homo sapiens with 12 samples.

Results

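The 8 genes described here are the 4 ID genes (ID1, ID2, ID3 and ID4) and 4 genes whose products damp signalling by bone morphogenetic proteins (BMPs) and transforming growth factor beta (TGF-beta), namely SMAD6, SMAD7, BAMBI and SKIL. They were selected by symbol from the 58735 genes of the deposited table, of which 14577 were tested, and they were chosen from an earlier look at the values of these same libraries. Their values are therefore given as a description, with no p-value for any of the 8. Where a gene of the 8 is said to have fallen or to have passed the test, this states the outcome of a model of all genes and supports nothing further. Each symbol had 1 gene identifier or was taken at the identifier with the highest mean level, and all 8 entered the test.

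RNA was sequenced from HaCaT cells, an immortalised human keratinocyte line, in 4 groups of 3 libraries. The groups were PHGDH-siRNA+Mix, PHGDH-siRNA, Control-siRNA+Mix and Control-siRNA, so that all cells had been transfected with an siRNA, against PHGDH or control, and 2 of the groups were also treated with Mix for 24 h. The labels do not say what Mix contains, which sequences the siRNAs had, or whether replicates were separate cultures, so that the spread between them may be technical. Cells were grown in medium with 10% serum, itself a source of growth factors. Levels are FPKM, fragments per kilobase of gene scaled to the size of the library. They are divided by gene length, but compare only roughly between genes.

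The libraries held 16403845 to 20901128 reads assigned to genes. PHGDH, the target of the siRNA, averaged 14.6 ± 3.96 FPKM in PHGDH-siRNA+Mix against 29.9 ± 2.88 in Control-siRNA+Mix, and 20.2 ± 3.44 in PHGDH-siRNA against 46.2 ± 9.84 in Control-siRNA (SD, n = 3 each). The PHGDH-siRNA libraries were below the control libraries without overlap at both conditions, although neither difference passed the test (limma adjusted p = 0.20 with Mix and 0.128 without). All 11 keratinocyte markers examined were expressed, among them KRT14 at a mean of 1267 FPKM. Of the fibroblast, melanocyte and leukocyte markers 1 each reached a mean of 0.5 FPKM (COL1A1, PMEL and CD14) and of the endothelial markers 0, and PTPRC, TYR and KDR were listed at 0 in every library. The keratinocyte markers summed to 5877 to 9740 FPKM in PHGDH-siRNA+Mix, against 2669 to 7456 in PHGDH-siRNA, and to 5496 to 5948 in Control-siRNA+Mix, against 2087 to 3103 in Control-siRNA. The part of this shift in the results was not tested, and in bulk RNA fewer cells of a type and less RNA per cell cannot be told apart. Replicate 2 differed from replicates 1 and 3 in many genes in both PHGDH-siRNA groups. In both groups 287 genes were more than 1 log2 unit higher there than the mean of replicates 1 and 3, and 326 more than 1 lower. In the control groups there were 8 such genes. The same count was not made for replicate 1 or 3. Results that rest on the replicate 2 libraries are given with and without them.

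BMP and TGF-beta bind pairs of receptor kinases at the cell surface, which phosphorylate SMAD proteins that enter the nucleus with SMAD4 and switch target genes. BMP receptors act through SMAD1, SMAD5 and SMAD9, and receptors for TGF-beta and activin through SMAD2 and SMAD3. The ID genes are well-known direct targets of the BMP branch. ID proteins carry a helix-loop-helix domain but no DNA-binding region, so they pair with E proteins such as TCF3 and TCF12 and keep these off DNA, and in keratinocytes they are associated with the proliferating, undifferentiated state. SMAD6 and SMAD7 are inhibitory SMADs, of which SMAD6 acts mainly on BMP receptors and SMAD7 on both branches. BAMBI is a receptor-like membrane protein without a kinase, and SKIL (SnoN) is a nuclear protein that binds SMADs and represses their targets. All 4 are themselves induced by the pathway, which makes them negative feedback genes.

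The starts of 3 of the genes are shown because ID3 and SMAD6 had the widest gaps between libraries with and without Mix, a choice made after their values were seen, and ID1 was the most abundant of the 8. The letters come from RefSeq promoter entries on GRCh38.p14, which were found for all 8 genes, and give the 250 bases before the start. For ID3 only 25 bases around its single motif are given. Capitals mark motifs found by a letter search on both strands: GTCTAGAC, the palindromic SMAD-binding element, in SMAD6 (chr15:66701986-66702235, plus strand), CAGAC, the short SMAD-binding element, in ID3 (chr1:23559634-23559658, minus strand), and TATAAA on both strands, overlapping, in ID1 (chr20:31605039-31605288, plus strand).
SMAD6: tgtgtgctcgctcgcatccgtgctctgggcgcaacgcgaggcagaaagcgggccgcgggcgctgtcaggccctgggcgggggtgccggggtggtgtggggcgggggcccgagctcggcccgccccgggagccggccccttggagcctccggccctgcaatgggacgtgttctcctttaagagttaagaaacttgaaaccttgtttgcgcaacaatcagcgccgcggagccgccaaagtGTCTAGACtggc
ID3: tcttcggcgtCAGACcagccggagg
ID1: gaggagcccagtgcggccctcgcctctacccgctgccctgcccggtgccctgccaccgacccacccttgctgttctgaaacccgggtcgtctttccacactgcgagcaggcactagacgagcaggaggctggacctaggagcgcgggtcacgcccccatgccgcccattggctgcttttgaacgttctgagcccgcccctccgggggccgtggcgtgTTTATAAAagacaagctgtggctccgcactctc

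The GTCTAGAC of SMAD6 began 12 bases before the start. That motif was in 64 of the 35114 RefSeq promoters searched over the same length (0.182%), and among the 8 genes in SMAD6 alone. CAGAC was in 38.0% of all promoters and in 5 of the 8 genes (ID3, ID4, SMAD7, BAMBI and SKIL). The GC-rich SMAD element GGCGCC was in 16.4% of promoters and in BAMBI and SKIL, and CAGCTG, a site read by E proteins, in 14% and in ID2 and ID4. TATAAA was in 10.7% of promoters and in ID1, ID4 and SMAD7, the last of which has 3 annotated starts. The windows of SMAD6 and ID1 overlap annotated exons by 8 and 6 bases because the start of the GENCODE 29 gene model lies slightly upstream. The ID3 site lies within an annotated exon. These matches describe letters and do not show binding.

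With Mix, ID3 and SMAD6 fell in both siRNA arms, and by FPKM means the level in PHGDH-siRNA was 4.39 times that in PHGDH-siRNA+Mix for ID3 and 11.9 times for SMAD6. With PHGDH siRNA, mean ID1 was lower and mean BAMBI and SMAD7 were higher than with control siRNA at both conditions, and none of these differences passed the test. The test was a single limma model of log2(FPKM + 1) over the 12 libraries. Its p-values were adjusted by the Benjamini-Hochberg method over 14577 genes, and a gene below 0.05 is said to have passed or to be called. Log2 fold changes on this scale are too small for genes near or below 1 FPKM. In the PHGDH-siRNA arms libraries of the same replicate number deviated together from their group means (correlations of 0.459 to 0.775 in the 3 pairs), so results that change in a fit with replicate as a block in these arms, added after the data were seen, are given with the blocked value. That fit also changes the estimate of the spread used for the control arms.

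**Figure D1:**
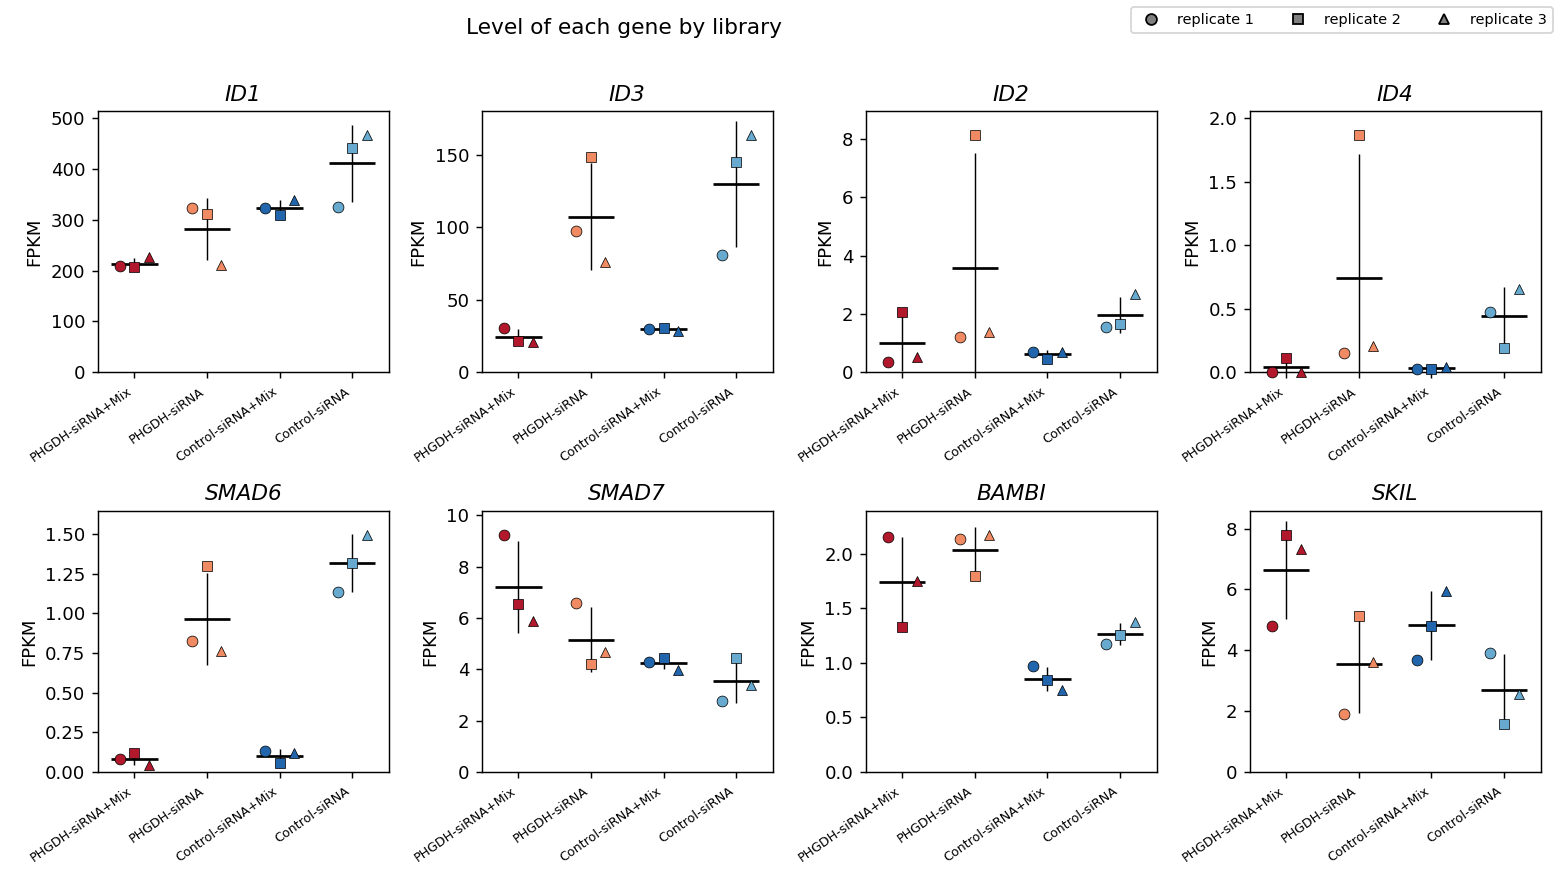
FPKM of each of the 8 genes (y axis, linear, from 0, scaled per gene) in the 12 libraries by group (x axis); symbols give the replicate number, the thick bar the mean and the thin line 1 SD either side, cut at 0. ID3 and SMAD6 lie lower in both Mix groups than in both groups without Mix, and in ID2 and ID4 the PHGDH-siRNA replicate 2 library lies far above the others of its group.

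ID1 (ENSG00000125968, chromosome 20, 31605283 to 31606515, plus strand) was the most abundant of the 8 in every library. It was at 209, 207 and 226 FPKM in the 3 PHGDH-siRNA+Mix libraries and at 323, 309 and 339 in Control-siRNA+Mix. Without Mix it was at 323, 311 and 211 FPKM in PHGDH-siRNA and at 325, 441 and 467 in Control-siRNA. Every PHGDH-siRNA+Mix library was thus below every Control-siRNA+Mix library, and every PHGDH-siRNA library below every Control-siRNA library. The means stood at 0.661 times the control level with Mix (log2 fold change -0.60, SE 0.19) and at 0.685 times without it (-0.55, SE 0.19). Mix itself came with lower means in both arms, 214 ± 10.5 against 282 ± 61.3 FPKM under PHGDH siRNA (-0.37) and 324 ± 15.0 against 411 ± 75.3 under control siRNA (-0.33), with overlap between the groups. The order of the group means was PHGDH-siRNA+Mix, PHGDH-siRNA, Control-siRNA+Mix and Control-siRNA from low to high, and PHGDH-siRNA and Control-siRNA+Mix did not differ beyond their spread.

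ID3 (ENSG00000117318, chromosome 1, 23557918 to 23559794, minus strand) fell with Mix in both arms. It was at 30.7, 21.5 and 21.2 FPKM in PHGDH-siRNA+Mix, against 97.2, 148 and 76.5 in PHGDH-siRNA. Under control siRNA it was at 30.0, 30.4 and 28.7 FPKM with Mix, against 80.8, 145 and 164 without. All 6 Mix libraries lay between 21.2 and 30.7 FPKM, and the 6 libraries without Mix, which varied more, between 76.5 and 164. The level without Mix was 4.39 times that with Mix under PHGDH siRNA (log2 fold change -2.05, SE 0.29) and 4.37 times under control siRNA (-2.03, SE 0.29). Leaving out replicate 2 of both PHGDH-siRNA groups gave means of 26.0 FPKM in PHGDH-siRNA+Mix and 86.8 in PHGDH-siRNA. Between siRNAs the ID3 groups overlapped, with log2 fold changes of -0.29 with Mix and -0.26 without (SE 0.29 each).

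ID2 (ENSG00000115738, chromosome 2, 8678845 to 8684453, plus strand), which in mice is needed for lymphoid development, was present at a low level. Its values were 0.350, 2.08 and 0.539 FPKM in PHGDH-siRNA+Mix and 1.21, 8.13 and 1.39 in PHGDH-siRNA. In control cells they were 0.703, 0.444 and 0.691 FPKM with Mix and 1.56, 1.65 and 2.69 without, so that the control groups did not overlap. The Control-siRNA mean was 3.21 times that of Control-siRNA+Mix (log2 fold change -0.86, SE 0.48), which did not pass the test over the 12 libraries. It was past the threshold in a fit of the 2 control groups alone, without replicate 2 of both PHGDH-siRNA groups, and with replicate as a block in the PHGDH-siRNA arms (SE 0.20). Under PHGDH siRNA the log2 fold change with Mix was -0.97 (SE 0.48), ID2 being lower with Mix in 3 of 3 same-numbered pairs. It did not pass over the 12 libraries, but was past the threshold without replicate 2 of both groups (-0.67) and with the block (-0.97, SE 0.20). In the PHGDH-siRNA groups replicate 2 was the highest library at both conditions, and the sign of the siRNA difference hung on it: the log2 fold change was 0.31 without Mix and 0.21 with it, but -0.35 and -0.16 without replicate 2. An antisense gene, ID2-AS1, shares 38 exon bases with ID2 and averaged 0.0328 FPKM, and whether the counting used strand is not given in the sources used here.

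ID4 (ENSG00000172201, chromosome 6, 19837386 to 19840684, plus strand) was close to undetected with Mix. It had 0, 5 and 0 reads in PHGDH-siRNA+Mix and 6, 84 and 9 in PHGDH-siRNA. In control cells it had 1, 1 and 2 reads with Mix and 20, 8 and 29 without. The gene passed the filter on low values only through PHGDH-siRNA, whose mean of 0.743 FPKM was 0.180 without replicate 2. In each arm every Mix library was below every library without Mix. No fold is given at so few reads, and no difference passed the test.

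The ID genes can be set against the E proteins they bind. ID1 to ID4 summed to 239 ± 8.46 FPKM in PHGDH-siRNA+Mix, 394 ± 93.2 in PHGDH-siRNA, 354 ± 14.2 in Control-siRNA+Mix and 543 ± 119 in Control-siRNA. TCF3, TCF4 and TCF12 together summed to 28.3 ± 4.25, 36.0 ± 5.42, 33.3 ± 1.62 and 38.4 ± 6.23 FPKM in the same groups. TCF3 made up most of that sum, and TCF4 stayed below the filter, with a highest group mean of 0.281 FPKM. The ID sum was thus 8.59 ± 1.14 times the E-protein sum in PHGDH-siRNA+Mix, 11.2 ± 3.87 in PHGDH-siRNA, 10.7 ± 0.956 in Control-siRNA+Mix and 14.1 ± 2.47 in Control-siRNA. Under control siRNA the ratio ran from 9.87 to 11.7 with Mix and from 12.4 to 17.0 without, whereas the PHGDH-siRNA groups overlapped (7.47 to 9.74 with Mix and 7.92 to 15.5 without). ID1 supplied 89.3% of the ID sum in PHGDH-siRNA+Mix against 72.0% in PHGDH-siRNA, and 91.4% in Control-siRNA+Mix against 76.1% in Control-siRNA. The ratio of ID1 to ID3 was 9.02 ± 2.01 in PHGDH-siRNA+Mix, against 2.73 ± 0.615 in PHGDH-siRNA. It was 10.9 ± 0.824 in Control-siRNA+Mix, against 3.31 ± 0.631 in Control-siRNA. These are RNA levels that compare only roughly between genes, and protein was not measured.

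**Figure D2:**
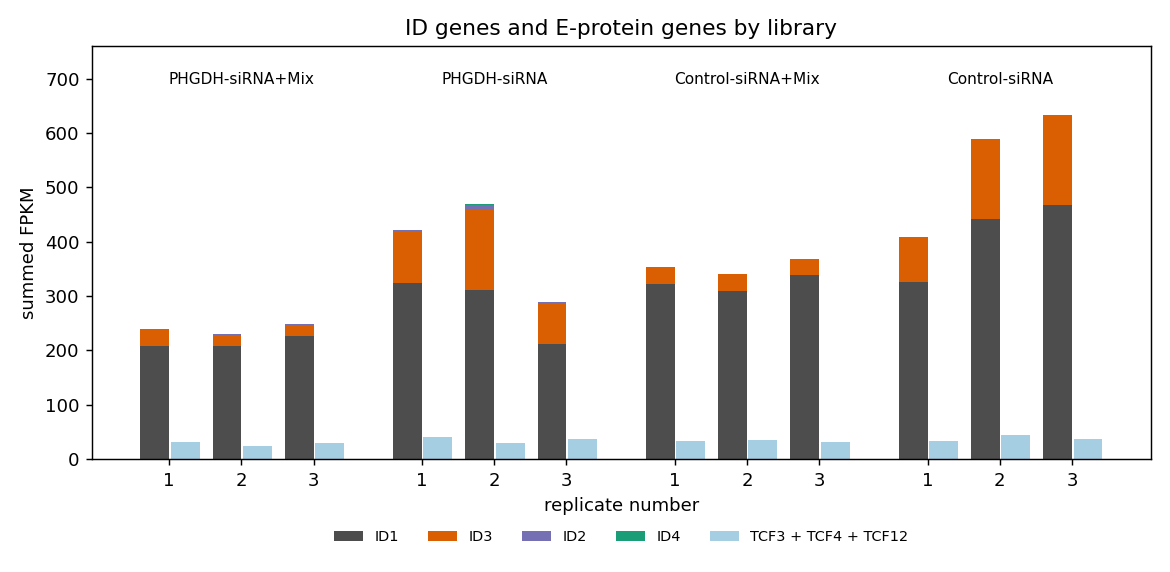
Summed FPKM per library (y axis) of ID1, ID3, ID2 and ID4, stacked, beside the summed FPKM of the E-protein genes TCF3, TCF4 and TCF12, for the 12 libraries by group (x axis). The ID sums lie between 231 and 248 FPKM in PHGDH-siRNA+Mix and reach 634 in Control-siRNA, the E-protein sums stay between 23.7 and 45.1, and the ID3 part is thin in the Mix libraries.

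SMAD6 (ENSG00000137834, chromosome 15, 66702228 to 66782848, plus strand), the inhibitory SMAD of the BMP branch, was low in all groups and fell with Mix in both arms. It was at 0.0781, 0.120 and 0.0442 FPKM in PHGDH-siRNA+Mix, against 0.825, 1.30 and 0.764 in PHGDH-siRNA. Under control siRNA it was at 0.134, 0.0572 and 0.117 FPKM with Mix, against 1.13, 1.32 and 1.5 without. The highest Mix library was far below the lowest library without Mix. These levels rest on 7 to 19 reads per library in PHGDH-siRNA+Mix and 117 to 213 in PHGDH-siRNA, and on 9 to 20 in Control-siRNA+Mix and 175 to 242 in Control-siRNA. SMAD6 passed the filter on low values only through PHGDH-siRNA and Control-siRNA, with means of 0.962 and 1.32 FPKM. Its fall with Mix is therefore not independent of the filter. By FPKM means the level without Mix was 11.9 times that with Mix under PHGDH siRNA and 12.8 times under control siRNA. The log2 fold changes of FPKM + 1 were -0.85 and -1.07 (SE 0.13 each), and on recovered reads, without adding 1 FPKM, -3.62 and -3.75. In a fit of the PHGDH-siRNA groups alone SMAD6 did not pass the threshold. Between siRNAs the levels overlapped (-0.03 with Mix, which became 0.02 after quantile normalization, and -0.25 without).

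SMAD7 (ENSG00000101665, chromosome 18, 48919853 to 48952052, minus strand), which blocks receptors of both branches, passed in none of the comparisons without the replicate block. It was at 9.25, 6.53 and 5.87 FPKM in PHGDH-siRNA+Mix and at 4.28, 4.42 and 3.98 in Control-siRNA+Mix. Without Mix it was at 6.59, 4.2 and 4.68 FPKM in PHGDH-siRNA and at 2.75, 4.45 and 3.40 in Control-siRNA. With Mix the PHGDH-siRNA libraries were all above the control libraries, at 1.71 times their mean (log2 fold change 0.63, SE 0.19), and without Mix the groups overlapped (0.44, SE 0.19). The Mix differences were 0.41 under PHGDH siRNA and 0.22 under control siRNA, with overlap. SMAD7 was higher with Mix in 3 of 3 same-numbered PHGDH-siRNA pairs, and with the block there it passed (0.41, SE 0.13). Set against its relative, SMAD7 stood at 102 ± 41.7 times the FPKM of SMAD6 in PHGDH-siRNA+Mix against 5.78 ± 2.39 times in PHGDH-siRNA. The ratio was 47.8 ± 25.6 in Control-siRNA+Mix against 2.69 ± 0.593 in Control-siRNA. By library it ran from 54.4 to 133 in PHGDH-siRNA+Mix and from 31.9 to 77.3 in Control-siRNA+Mix. The SMAD6 level there rests on few reads, so the ratios with Mix are imprecise.

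BAMBI (ENSG00000095739, chromosome 10, 28677342 to 28682939, plus strand), the receptor decoy, was at 2.16, 1.33 and 1.75 FPKM in PHGDH-siRNA+Mix and at 0.967, 0.846 and 0.749 in Control-siRNA+Mix. Without Mix it was at 2.14, 1.80 and 2.18 FPKM in PHGDH-siRNA and at 1.17, 1.26 and 1.37 in Control-siRNA. All 6 libraries with PHGDH siRNA were therefore above their controls at the same condition. The means were 2.04 times the control with Mix (log2 fold change 0.56, SE 0.13) and 1.61 times without it (0.42, SE 0.13), on 33 to 97 reads per library. With Mix the difference was past the threshold once replicate 2 of the PHGDH-siRNA groups was left out (0.67). Control-siRNA+Mix lay below Control-siRNA without overlap (-0.29), which was past the threshold only in the fit with the block in the PHGDH-siRNA arms, and the PHGDH-siRNA groups overlapped (-0.16).

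SKIL (ENSG00000136603, chromosome 3, 170357678 to 170396835, plus strand), the nuclear SMAD repressor, passed in none of the comparisons without the replicate block. It was at 4.80, 7.80 and 7.33 FPKM in PHGDH-siRNA+Mix, against 1.89, 5.13 and 3.62 in PHGDH-siRNA. Under control siRNA it was at 3.69, 4.79 and 5.96 FPKM with Mix, against 3.91, 1.57 and 2.56 without. Means were higher with Mix in both arms, 1.87 times under PHGDH siRNA (log2 fold change 0.79, SE 0.31) and 1.80 times under control siRNA (0.69, SE 0.31), with overlap. SKIL was higher with Mix in 3 of 3 same-numbered PHGDH-siRNA pairs, and with the block there it passed (0.79, SE 0.23). The siRNA differences were 0.39 with Mix and 0.29 without, again with overlap.

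**Figure D3:**
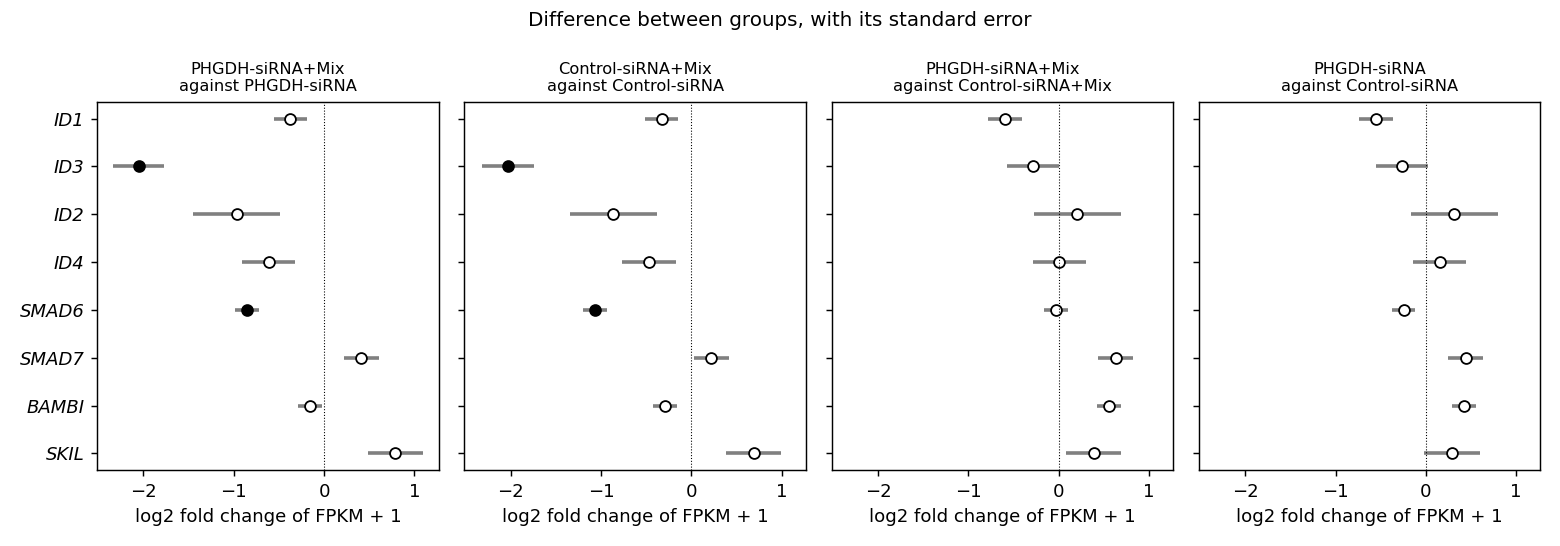
Log2 fold change of FPKM + 1 (x axis) of the 8 genes (y axis) in the 4 comparisons between groups, with bars of 1 SE either side; filled circles passed an adjusted p of 0.05. ID3 and SMAD6 are the filled circles, in both Mix comparisons, at -2.05 and -0.85 under PHGDH siRNA and at -2.03 and -1.07 under control siRNA.

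Counted over the 8 genes, Mix against no Mix gave 0 genes up and 2 down in each arm. Under PHGDH siRNA 8.86% of all genes tested were called (5.22% up and 3.64% down), and under control siRNA 9.54% (5.62% up and 3.92% down). With replicate as a block in the PHGDH-siRNA arms the counts were 2 up and 3 down under PHGDH siRNA, where 12.1% of all genes were called up and 10.4% down, and 0 up and 4 down under control siRNA, where 12.1% were called up and 10.5% down. The medians of the 8 log2 fold changes were -0.49 and -0.40, beside medians over all genes within 0.00652 of 0. Groups did not overlap for 3 of the 8 genes under PHGDH siRNA and for 5 under control siRNA, each lower with Mix, where 21.5% and 37.8% of all genes did not overlap in either direction. PHGDH-siRNA+Mix against Control-siRNA+Mix gave 0 of 8 by limma, 3 at an unadjusted p under 0.05 and 0 with voom. Voom is the limma test of read counts, run on the recovered reads. Over all 14577 genes limma called 0.0206%, 834 were at an unadjusted p under 0.05 and voom called 5. In this comparison the groups did not overlap for SMAD7, BAMBI and ID1, beside 14.3% of all genes. PHGDH-siRNA against Control-siRNA gave 0 of 8 by limma, 3 at an unadjusted p under 0.05 and 0 with voom. Over all genes limma called 0.0412% there, 935 were at an unadjusted p under 0.05 and voom called 6. Here BAMBI and ID1 did not overlap, beside 10.2% of all genes. Because the 8 were chosen with these values in view, their counts are not evidence that they differ from other genes.

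The effect of Mix was compared between the siRNA arms as the interaction, which is the log2 fold change with Mix in PHGDH-siRNA cells less the same in control cells. It was -0.02 for ID3 (SE 0.41), 0.22 for SMAD6 (SE 0.18) and -0.04 for ID1 (SE 0.26). Among the feedback genes it was 0.19 for SMAD7, 0.14 for BAMBI and 0.10 for SKIL. limma called 0 of the 8, with 0 at an unadjusted p under 0.05 and 0 with voom. Over all genes it called 0% of those tested, 250 genes were at an unadjusted p under 0.05 and voom called 0. A p that misses the threshold does not show equal responses.

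The 8 genes did not follow 1 pattern across the libraries. By Pearson correlation of log2(FPKM + 1) over the 12 libraries, which share the 4 groups and so are not independent, ID3 and SMAD6 were the most alike pair (r = 0.977), then ID2 and ID4 (r = 0.940), both high in PHGDH-siRNA replicate 2. SKIL ran opposite to ID3 (r = -0.75) and ID1 (r = -0.66), and SMAD7 opposite to ID1 (r = -0.65). Over all genes with a symbol, the closest to ID3 was WWOX (r = 0.980), followed by SMAD6 and ALDH3B1 (r = 0.970). The closest to SMAD6 were WNT10A (r = 0.992), a WNT ligand of skin appendages, EDAR (r = 0.991), the ectodysplasin receptor, and ALDH3B1 (r = 0.986). ID1 was most like MMP28 (r = 0.921), epilysin, a metalloproteinase of keratinocytes, and BAMBI most like the homeobox gene DLX2 (r = 0.941). ID2 was most like SOX2 (r = 0.976), ID4 most like CYP4F3 (r = 0.979), SMAD7 most like the serine protease PRSS8 (r = 0.970), and SKIL most like ACSL4 (r = 0.980).

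Around the 8 genes, 92 other genes of the pathway were listed by role, of which 65 passed the filter. With Mix, 9 rose and 1 fell under PHGDH siRNA (15.4% of the 65), and 11 rose and 4 fell under control siRNA (23.1%), beside the 8.86% and 9.54% of all genes given above. The median log2 fold changes of the 65 were 0.10 and 0.13. With replicate as a block in the PHGDH-siRNA arms, 24 rose and 6 fell under PHGDH siRNA (46.2%), where 22.5% of all genes were called, and 21 rose and 6 fell under control siRNA (41.5%), where 22.6% were called. These counts held all 10 and all 15 genes called without the block. BMP4, the BMP receptors BMPR1A and BMPR2 and the BMP-branch SMAD1 and SMAD5 did not pass in either arm without the block. Counts by role are given without the block. The pathway lists were chosen with earlier results of these data known. Their counts and shares are therefore not evidence that the pathway differs from other genes.

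Among ligands 1 of 8 passed, and it rose in both arms: INHBA, the subunit of activin A, was at 51.8, 30.4 and 43.8 FPKM in PHGDH-siRNA+Mix, against 5.20, 2.99 and 5.97 in PHGDH-siRNA (log2 fold change 2.92, limma adjusted p = 4.09e-05). Under control siRNA it was at 21.6, 23.4 and 30.4 FPKM with Mix, against 1.92, 1.67 and 1.40 without (3.28, adjusted p = 1.11e-05). Every Mix library was above every library without Mix in both arms. TGFB1, the most abundant ligand, averaged 57.7 ± 10.9 FPKM in PHGDH-siRNA+Mix against 38.4 ± 10.8 in PHGDH-siRNA, and 55.3 ± 4.60 in Control-siRNA+Mix against 33.5 ± 6.90 in Control-siRNA, without passing (limma adjusted p = 0.138 and 0.0697). It passed in both arms with the block (0.60 and 0.72, limma adjusted p = 0.0168 and 0.00675), and under control siRNA also without replicate 2 of both PHGDH-siRNA groups (0.72, adjusted p = 0.0112). BMP4 averaged 1.15 ± 1.08 FPKM in PHGDH-siRNA+Mix against 2.21 ± 0.711 in PHGDH-siRNA, and 0.730 ± 0.143 in Control-siRNA+Mix against 1.42 ± 0.349 in Control-siRNA, also without passing (adjusted p = 0.213 and 0.400). Its libraries under PHGDH siRNA were at 0.384, 2.38 and 0.667 FPKM with Mix and 2.63, 2.62 and 1.39 without, and without replicate 2 of both groups BMP4 was past the threshold there (-0.96, limma adjusted p = 0.0169), whereas with the block it was not (adjusted p = 0.0525). With the block BMP2 and INHBE rose under control siRNA (0.48 and 1.11, limma adjusted p = 0.00692 and 0.0187). BMP2 also passed there without replicate 2 of both PHGDH-siRNA groups (adjusted p = 0.0473). Under PHGDH siRNA BMP7 fell with the block (-0.51, limma adjusted p = 0.0295). It was at 0.0950, 2.77 and 0.0599 FPKM with Mix and 0.256, 6.26 and 0.376 without, replicate 2 being far the highest. BMP7 passed the filter on low values only through PHGDH-siRNA and PHGDH-siRNA+Mix, with means of 2.30 and 0.976 FPKM. Those means rest on replicate 2, and the fall of BMP7 is not independent of the filter.

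With Mix under PHGDH siRNA, 3202 of all 14577 genes were at an unadjusted p under 0.05 and voom called 1380. Among receptors 0 of 10 passed under PHGDH siRNA by limma (3 at an unadjusted p under 0.05, 0 with voom) and 1 rose under control siRNA. That was ACVR1B, an activin type I receptor, at 9.70 ± 0.615 FPKM in Control-siRNA+Mix against 7.08 ± 0.463 in Control-siRNA (log2 fold change 0.40, limma adjusted p = 0.0282). With the block 4 receptors rose under PHGDH siRNA, namely TGFBR1 (0.76, limma adjusted p = 0.0123), BMPR2 (0.51, adjusted p = 0.0277), ACVR1B (0.27, adjusted p = 0.0457) and ACVR1 (0.38, adjusted p = 0.0479), and TGFBR1 also rose under control siRNA (0.88, adjusted p = 0.00597). TGFBR2, the most abundant receptor, stood at 14.8 ± 4.03 FPKM in PHGDH-siRNA+Mix, 14.5 ± 2.35 in PHGDH-siRNA, 13.9 ± 0.222 in Control-siRNA+Mix and 13.9 ± 2.46 in Control-siRNA. Of 7 secreted antagonists 1, the activin-binding FST, rose under control siRNA, at 90.2, 82.7 and 83.9 FPKM in Control-siRNA+Mix against 23.6, 22.2 and 16.1 in Control-siRNA (2.02, limma adjusted p = 0.00614). Under PHGDH siRNA FST was at 134, 41.0 and 80.5 FPKM with Mix and 38.1, 19.96 and 37.6 without (1.29, adjusted p = 0.0555), and 0 of the 7 antagonists passed there by limma (2 at an unadjusted p under 0.05, 1 with voom). FST passed there without replicate 2 of both groups (1.43, adjusted p = 0.00373) and with the block (1.29, adjusted p = 0.000970). With the block FSTL1 and FSTL3, relatives of FST, also rose under PHGDH siRNA (0.40 and 0.78, limma adjusted p = 0.0273 and 0.0221) and the BMP antagonist NOG fell (-0.65, adjusted p = 0.0192). FSTL1 and FSTL3 then rose under control siRNA too (0.51 and 1.06, limma adjusted p = 0.00932 and 0.00517).

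Of the 5 signal-transducing SMADs tested 1 rose in both arms, SMAD3, which carries the TGF-beta and activin signal. It averaged 32.5 ± 7.69 FPKM in PHGDH-siRNA+Mix against 19.4 ± 6.25 in PHGDH-siRNA (limma adjusted p = 0.0476), and 28.6 ± 0.962 in Control-siRNA+Mix against 15.3 ± 0.382 in Control-siRNA (adjusted p = 0.0227). The first call was lost under 15 of 23 alternative settings and the second under 8, and with the block the adjusted p was 0.000165 and 4.91e-05. SMAD1 and SMAD5, which carry the BMP signal, averaged 3.39 ± 0.705 and 4.72 ± 1.25 FPKM in PHGDH-siRNA+Mix, against 2.27 ± 0.447 and 4.57 ± 1.23 in PHGDH-siRNA. In control cells they averaged 3.72 ± 0.210 and 4.08 ± 0.141 FPKM with Mix, against 3.13 ± 0.203 and 4.38 ± 1.34 without. SMAD1 passed under PHGDH siRNA without replicate 2 of both groups (0.47, limma adjusted p = 0.0226) and with the block (0.42, adjusted p = 0.00660). SMAD9, of the same branch, stayed below the filter.

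Of 13 intracellular modulators 2 rose in both arms. PMEPA1, a TGF-beta target whose product sequesters receptor SMADs, averaged 39.2 ± 7.30 FPKM in PHGDH-siRNA+Mix against 19.9 ± 3.38 in PHGDH-siRNA (log2 fold change 0.94, limma adjusted p = 0.00733), and 30.9 ± 0.592 in Control-siRNA+Mix against 13.0 ± 2.34 in Control-siRNA (1.20, adjusted p = 0.00146). SMURF1, a ubiquitin ligase that marks BMP-branch SMADs and receptors for degradation, averaged 17.4 ± 2.11 FPKM in PHGDH-siRNA+Mix against 11.8 ± 0.758 in PHGDH-siRNA (0.52, adjusted p = 0.0122), and 13.9 ± 0.175 in Control-siRNA+Mix against 9.81 ± 0.439 in Control-siRNA (0.47, adjusted p = 0.0196). TGIF2, a corepressor of SMADs, fell under control siRNA, to 7.12 ± 0.531 FPKM in Control-siRNA+Mix against 10.8 ± 0.984 in Control-siRNA (-0.54, adjusted p = 0.0152). Under PHGDH siRNA TGIF2 averaged 8.0 ± 0.923 FPKM with Mix against 10.99 ± 0.942 without, which passed with the block (-0.42, limma adjusted p = 0.00796). With the block SMURF2, NEDD4L and TGIF1 rose under PHGDH siRNA (0.40, 0.80 and 0.45, limma adjusted p = 0.0137, 0.00582 and 0.00328). They also rose under control siRNA (0.41, 0.62 and 0.41, adjusted p = 0.0129, 0.0180 and 0.00487). ZFYVE9 rose with the block under PHGDH siRNA only (0.41, adjusted p = 0.0490).

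Of 16 other SMAD target genes 3 rose and 1 fell under PHGDH siRNA, and 3 rose and 2 fell under control siRNA. CDKN1A, the cell-cycle inhibitor p21, averaged 252 ± 84.6 FPKM in PHGDH-siRNA+Mix against 72.3 ± 24.7 in PHGDH-siRNA (1.79, limma adjusted p = 0.00265), and 174 ± 4.44 in Control-siRNA+Mix against 53.0 ± 7.31 in Control-siRNA (1.70, adjusted p = 0.00303). JUNB, an AP-1 subunit, rose under control siRNA, with 367 ± 20.8 FPKM in Control-siRNA+Mix against 149 ± 55.2 in Control-siRNA (adjusted p = 0.0197). Under PHGDH siRNA JUNB stood at 399 ± 114 FPKM with Mix against 197 ± 64.2 without, which passed with the block (1.03, limma adjusted p = 0.0182). LTBP2, which binds the extracellular matrix, rose under PHGDH siRNA, with 3.90 ± 2.23 FPKM in PHGDH-siRNA+Mix against 1.13 ± 0.295 in PHGDH-siRNA (adjusted p = 0.0162), its highest value, 6.47, being replicate 2. With the block LTBP2 rose under control siRNA too (0.79, limma adjusted p = 0.00360). LTBP3 fell with the block in both arms (-0.63 under PHGDH siRNA and -0.80 under control siRNA, adjusted p = 0.0112 and 0.00336). HEY1 fell with it under control siRNA (-0.68, adjusted p = 0.00790), and TSC22D1 rose under PHGDH siRNA (0.44, adjusted p = 0.0249). DLX3, a homeobox gene of the differentiating epidermis, fell in both arms, to 2.00 ± 0.524 FPKM in PHGDH-siRNA+Mix against 3.57 ± 0.532 in PHGDH-siRNA (-0.61, adjusted p = 0.0331) and to 1.86 ± 0.338 in Control-siRNA+Mix against 4.13 ± 0.474 in Control-siRNA (-0.85, adjusted p = 0.00614). The DLX3 call under PHGDH siRNA was lost under 9 of 23 alternative settings, among them leaving out replicate 2 of both PHGDH-siRNA groups. CDKN2B, the cell-cycle inhibitor p15 and a classical target raised by TGF-beta, fell under control siRNA, to 3.99 ± 0.50 FPKM in Control-siRNA+Mix against 7.04 ± 0.680 in Control-siRNA (-0.69, adjusted p = 0.0399). CDKN2B is named after its values were seen, and its call was lost under 11 of 23 alternative settings.

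Of the 6 tested E proteins and partners of ID proteins 2 rose in both arms and 1 fell under control siRNA, and none of these is an E protein. BHLHE40, a transcriptional repressor of the circadian and hypoxia responses, averaged 54.0 ± 4.70 FPKM in PHGDH-siRNA+Mix against 19.7 ± 2.09 in PHGDH-siRNA (1.41, limma adjusted p = 0.000121), and 54.3 ± 4.51 in Control-siRNA+Mix against 17.2 ± 2.58 in Control-siRNA (1.61, adjusted p = 3.32e-05). ETS1, a transcription factor that ID proteins can bind, was at 35.7, 42.2 and 31.1 FPKM in PHGDH-siRNA+Mix, against 9.45, 13.96 and 11.5 in PHGDH-siRNA (1.57, adjusted p = 0.000132). In control cells ETS1 was at 20.7, 21.1 and 24.3 FPKM with Mix, against 7.05, 6.33 and 6.13 without (1.62, adjusted p = 7.18e-05). The related repressor BHLHE41 fell to 1.32 ± 0.0269 FPKM in Control-siRNA+Mix against 4.96 ± 0.481 in Control-siRNA (-1.35, adjusted p = 0.0291), a call lost under 7 of 23 alternative settings. Under PHGDH siRNA BHLHE41 averaged 1.38 ± 0.843 FPKM with Mix against 3.94 ± 2.08 without and did not pass (-1.01, adjusted p = 0.0970). It was past the threshold there without replicate 2 of both groups (-1.12, adjusted p = 0.000531) and with the block (-1.01, adjusted p = 0.000373). The E proteins TCF3 and TCF12 averaged 23.5 ± 4.64 and 4.45 ± 0.426 FPKM in PHGDH-siRNA+Mix, against 31.7 ± 6.34 and 4.05 ± 0.921 in PHGDH-siRNA, without passing. In control cells they averaged 28.7 ± 1.87 and 4.27 ± 0.278 FPKM with Mix, against 34.0 ± 7.28 and 4.15 ± 1.08 without, also without passing.

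**Figure D4:**
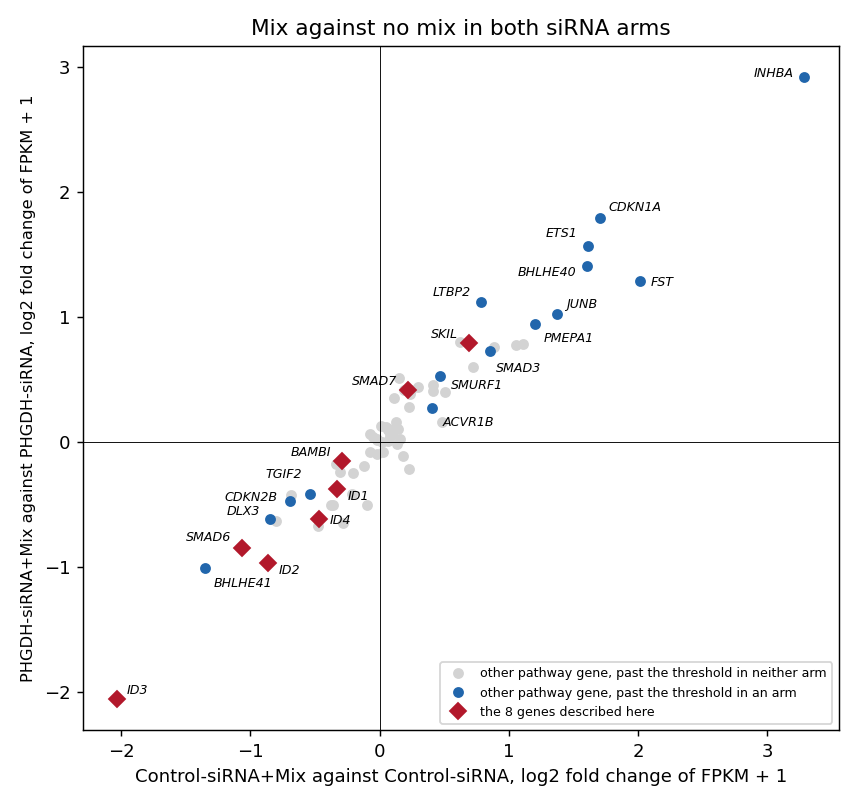
Log2 fold change of FPKM + 1 with Mix under PHGDH siRNA (y axis) against that under control siRNA (x axis) for the other pathway genes tested, 1 left out, and the 8 genes described here, marked apart. INHBA (2.92 under PHGDH siRNA and 3.28 under control siRNA) lies at the upper right, and ID3 (-2.05 under PHGDH siRNA and -2.03 under control siRNA) lies at the lower left.

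Between siRNAs, 0 of the 65 pathway genes were called by limma with Mix (3 at an unadjusted p under 0.05, 0 with voom) and 0 without it (6 and 0). Over all 14577 genes, 834 were at an unadjusted p under 0.05 with Mix and 935 without, and voom called 5 and 6. With Mix 49 of the 65 were higher and 16 lower under PHGDH siRNA, with a median log2 fold change of 0.07. Without Mix 48 were higher and 17 lower, with a median of 0.09. Over all genes 7180 were higher and 7330 lower with Mix, and 7481 and 7014 without. The genes share the same libraries and are not independent, and whether the split of the 65 differs from that of all genes was not tested. INHBA averaged 42.0 ± 10.8 FPKM in PHGDH-siRNA+Mix against 25.1 ± 4.65 in Control-siRNA+Mix, and 4.72 ± 1.55 in PHGDH-siRNA against 1.66 ± 0.257 in Control-siRNA, in each case without overlap (adjusted p = 0.698 and 0.233). With Mix the gap was narrow, from 30.40 FPKM in the highest Control-siRNA+Mix library to 30.43 in the lowest PHGDH-siRNA+Mix library. Groups did not overlap for 5 of the 65 genes with Mix, all higher under PHGDH siRNA, beside 14.3% of all genes. Without Mix 8 of the 65 were higher and 1 lower without overlap, beside 10.2% of all genes. Without replicate 2 of the PHGDH-siRNA groups the INHBA difference without Mix passed (log2 fold change 1.31, limma adjusted p = 0.0173). For the interaction limma called 0 of the 65, with 0 at an unadjusted p under 0.05 and 0 with voom.

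The number of pathway genes called with Mix depended on single libraries. Under control siRNA the 15 became 8 without Control-siRNA+Mix replicate 1 or 3, and 9 without Control-siRNA+Mix replicate 2 or Control-siRNA replicate 3. Under PHGDH siRNA the 10 became 16 without PHGDH-siRNA replicate 2 and 6 without PHGDH-siRNA replicate 3, and without replicate 2 of both PHGDH-siRNA groups the counts were 20 under PHGDH siRNA and 25 under control siRNA. INHBA, BHLHE40 and ETS1 passed in both arms under all 23 alternative settings, and FST, PMEPA1, CDKN1A and DLX3 did so under control siRNA.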

How the data were processed

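Per the labels, RNA was taken with RNAiso Plus and made into libraries with the NEBNext Ultra RNA kit. The authors deposited FPKM per gene for 58735 genes in 12 samples, and per the submitters' processing notes the tools were featureCounts 1.5.0-p3, HISAT2 2.0.5 and CASAVA on hg38, with roles and settings not given in the sources used here. FPKM times gene length came in whole steps (100% of values up to 200 reads within 0.05 of a whole read), which gave the reads behind each value. All gene identifiers matched GENCODE 29.

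Genes averaging at least 0.5 FPKM in a group entered limma 3.58.1 (R 4.3.3, trend and robust options) on log2(FPKM + 1), with a mean per group over all 12 samples, 8 residual degrees of freedom, two-sided tests and Benjamini-Hochberg adjustment. An exact permutation test of 3 against 3 cannot go below 0.1. Alternatives were voom on recovered reads, other pseudocounts, filters and scalings, a fit of 2 groups alone, a replicate block and left-out libraries. The labels do not say what replicate numbers mean; over all groups the numbers did not pair the libraries, but in the PHGDH-siRNA arms each of the 3 same-numbered pairs had deviations that correlated above 0.1 (0.459 to 0.775). Replicate 2 differed from replicates 1 and 3 in many genes in both of these groups, and deviations from a mean of 3 are not independent. A block in these arms alone, with 6 residual degrees of freedom, was added after the data were seen and is used for the Mix comparisons and the interaction. The 8 genes, the pathway and marker lists and the alternatives were chosen with earlier results of these data known. Of the pathway lists, up to 4 called genes per list and comparison and the most abundant gene of each were named. Genes called only with the block were named as well. The fit was tested on simulated libraries that were independent, with changes only in genes not low in reads. Shared deviations of replicates and changes at few reads were not covered. The 3 most alike genes per member were found by Pearson correlation, leaving out clone-named genes. Of the pathway and marker lists 1 gene each is not reported here, though it is counted.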

Additional observations from a re-analysis of the deposited data

How the results depend on the processing

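Of 876 fold changes of the 8 genes under alternatives, 851 had the sign reported and 866 stayed on the same side of the threshold. The 25 with another sign were of ID2, ID4 and SMAD6 between siRNAs and of ID1, ID2, ID3 and SKIL in the interaction, all uncalled; ID2 turned to -0.35 without PHGDH-siRNA replicate 2. The cause was not tested. Few reads limit ID4, SMAD6 with Mix and BAMBI.

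Of the 8 genes, a filter at a mean of 2 FPKM left 1 called with Mix in each arm, since SMAD6 was not tested there, and a fit of the 2 groups alone left 1 under PHGDH siRNA and gave 3 under control siRNA, ID2 being added. Leaving out each library in turn gave 2 in both arms every time and 0 in both siRNA comparisons and the interaction. Without the replicate 2 libraries of the PHGDH-siRNA groups 3 were called with Mix in each arm, ID2 being added, and 1 (BAMBI) between siRNAs with Mix.

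Of the other pathway genes, leaving out single libraries gave 6 to 16 under PHGDH siRNA and 8 to 19 under control siRNA, and 0 in the rest. A fit of the 2 groups alone gave 4 and 29, and leaving out the replicate 2 libraries of the PHGDH-siRNA groups 20 and 25, with 1 (INHBA) between siRNAs without Mix.

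Over all genes, PHGDH-siRNA against Control-siRNA gave 6 calls, 1 with no filter, 3 with median scaling, 12 with quantile normalization, 0 in a fit of the 2 groups alone, 101 without both replicate 2 libraries and 0 to 15 without single libraries. PHGDH-siRNA+Mix against Control-siRNA+Mix gave 3, 1 with a pseudocount of 0.1 or 0.5, 5 with no filter or with voom, 0 in a fit of the 2 groups alone, 55 without both replicate 2 libraries and 0 to 6 without single libraries. PHGDH-siRNA+Mix against PHGDH-siRNA gave 1291, 761 with no filter, 238 in a fit of the 2 groups alone, 2190 without both replicate 2 libraries and 665 to 1644 without single libraries. Control-siRNA+Mix against Control-siRNA gave 1391, 2642 in a fit of the 2 groups alone, 3023 without both replicate 2 libraries and 658 to 1780 without single libraries. The interaction gave 5 with no filter and 0 otherwise.

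Over all groups same-numbered libraries were not taken as pairs, since only 5 of 18 correlations of their deviations from the group means were above 0.1 (lowest -0.387, highest 0.775). With the replicate block over all groups 0, 0, 1188 and 1293 of all genes were called in these 4 comparisons and 0 in the interaction, with 2 of the 8 genes in each Mix comparison and 11 and 14 other pathway genes. In the PHGDH-siRNA arms all 3 pairs were above 0.1. A replicate block in these arms alone, added after the data were seen, gave 3284 calls with Mix under PHGDH siRNA and 3298 under control siRNA, 5 and 4 of the 8 genes, and 30 and 27 other pathway genes, with 0 of each in the interaction. Among the 8 genes and the other pathway genes, it changed no other call of a gene named in the report. Its calls of PHGDH and of the genes most alike in pattern are not given here.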
